A study of Mus musculus with 5 samples.

Results

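Hepatic stellate cells and the extracellular matrix of the liver were described by 41 genes, all of which had 1 row each among the 33589 rows of the expression table. They were chosen by symbol as 16 genes of the quiescent stellate cell and 25 genes of collagens, crosslinking and fibrogenesis. The rule uses no measured value, but the members were chosen with earlier results of these data known. The data are RNA-seq of mouse liver in 5 libraries. In 3 knockout livers, of genotype Lyve1-Cre;Hegfl/fl, a floxed Heg1 gene was combined with a Cre recombinase driven by Lyve1. In 2 control livers, of genotype Hegfl/fl, the same floxed gene was present and no Cre is named in the labels. All mice were males of 6 weeks that were fed a high-fat diet for 4 weeks, so the diet was common to both groups. Lyve1 marks lymphatic and liver sinusoidal endothelium, so the deletion was directed at endothelial cells and not at stellate cells. The labels do not say in which cells it took place. The labels name liver as the tissue although the series title speaks of hepatocytes, and RNA of all liver cell types was therefore read together. Values are FPKM, fragment counts scaled to transcript length and library total, and group values are means ± SD over 3 knockout and 2 control livers.

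Stellate cells lie between sinusoidal endothelium and hepatocytes and store vitamin A as retinyl esters while quiescent. On injury they can turn into myofibroblasts, which lose the vitamin A stores, express smooth muscle actin and secrete fibrillar collagens. TGF-beta drives matrix synthesis in that process, PDGF drives proliferation, and lysyl oxidases crosslink the collagen that has been laid down. A high-fat diet given for a few weeks is known mainly for fat storage in hepatocytes, and fibrosis in such models is usually a later event.

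No member of the list passed the test between knockout and control livers, and for 39 of the 41 the values of the groups overlapped. Of the 41 genes, 35 had a mean of at least 1 FPKM and were tested in a fit over all 10820 rows at that level. In that fit 0 of the 35 passed limma's test at an adjusted p of 0.05 (Benjamini-Hochberg), against 0.0% of all rows. The adjusted p of the members ran between 0.700 and 0.997. At an unadjusted p below 0.05 there was 1 member, Lum, where 7.0% of all rows had such a p. Knockout and control values were fully separate for 2 of the 35 members, Lum and Hand2, both lower in knockouts, and for 25.3% of all rows. By direction, 2 of 35 members lay entirely lower, against 6.38% of all rows, and 0 of 35 lay entirely higher, against 18.9% of all rows. The 95% interval of the log2 fold change of FPKM + 1 spanned 0 for 34 of the 35 tested members. For 34 it lay within 1 log2 unit of 0 on that scale. The scale understates the change of low genes, so these limits do not bound the change of FPKM itself. A change in the number of stellate cells and a change of RNA per cell cannot be told apart in whole liver.

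**Figure D1:**
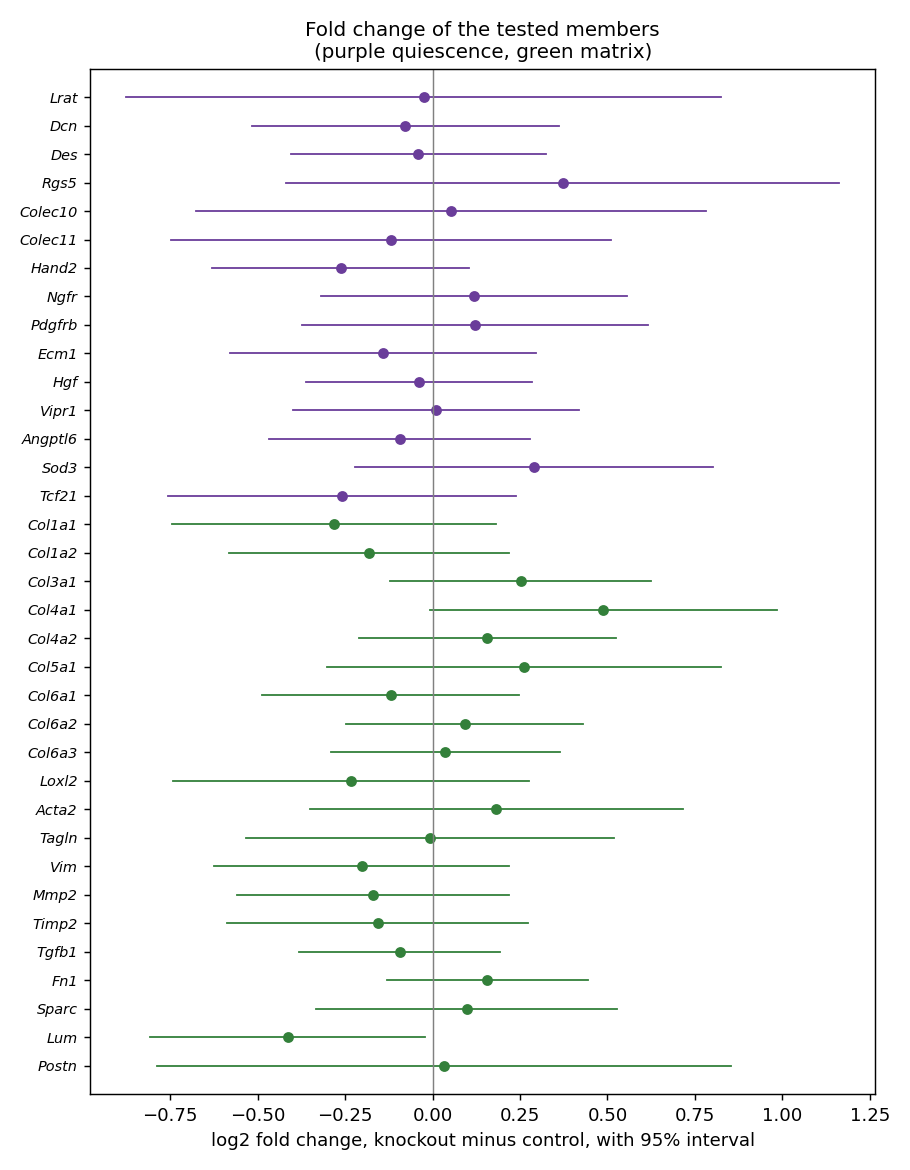
Log2 fold change (difference of mean log2(FPKM + 1), knockout minus control) of the 35 tested members with its 95% interval from limma, quiescence genes in purple and matrix genes in green. The interval of Lum alone lies wholly below 0, and 16 of the members are above 0 and 19 below it.

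Levels spanned more than 3 orders on the FPKM scale, which is per length and allows genes to be compared. Fn1, encoding fibronectin, which hepatocytes also secrete into plasma, was the most abundant member with a mean level of 305 FPKM over the 5 livers. It was followed by Ecm1 with 99.2 FPKM, Dcn with 73.9 FPKM and Colec11 with 32.5 FPKM. Sparc, at 29.3 FPKM, and Vim, at 21.5 FPKM, came next, both also made by endothelial cells. The remaining levels were lower, and 32 of the 41 members averaged under 10 FPKM. The lowest were Lox, the lysyl oxidase itself, with a mean of 0.078 FPKM, Tgfb2 with 0.158 FPKM and Timp1 with 0.438 FPKM. Of the markers of the stellate cell, 15 of 16 averaged at least 1 FPKM, so its transcripts were present in these livers.

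**Figure D2:**
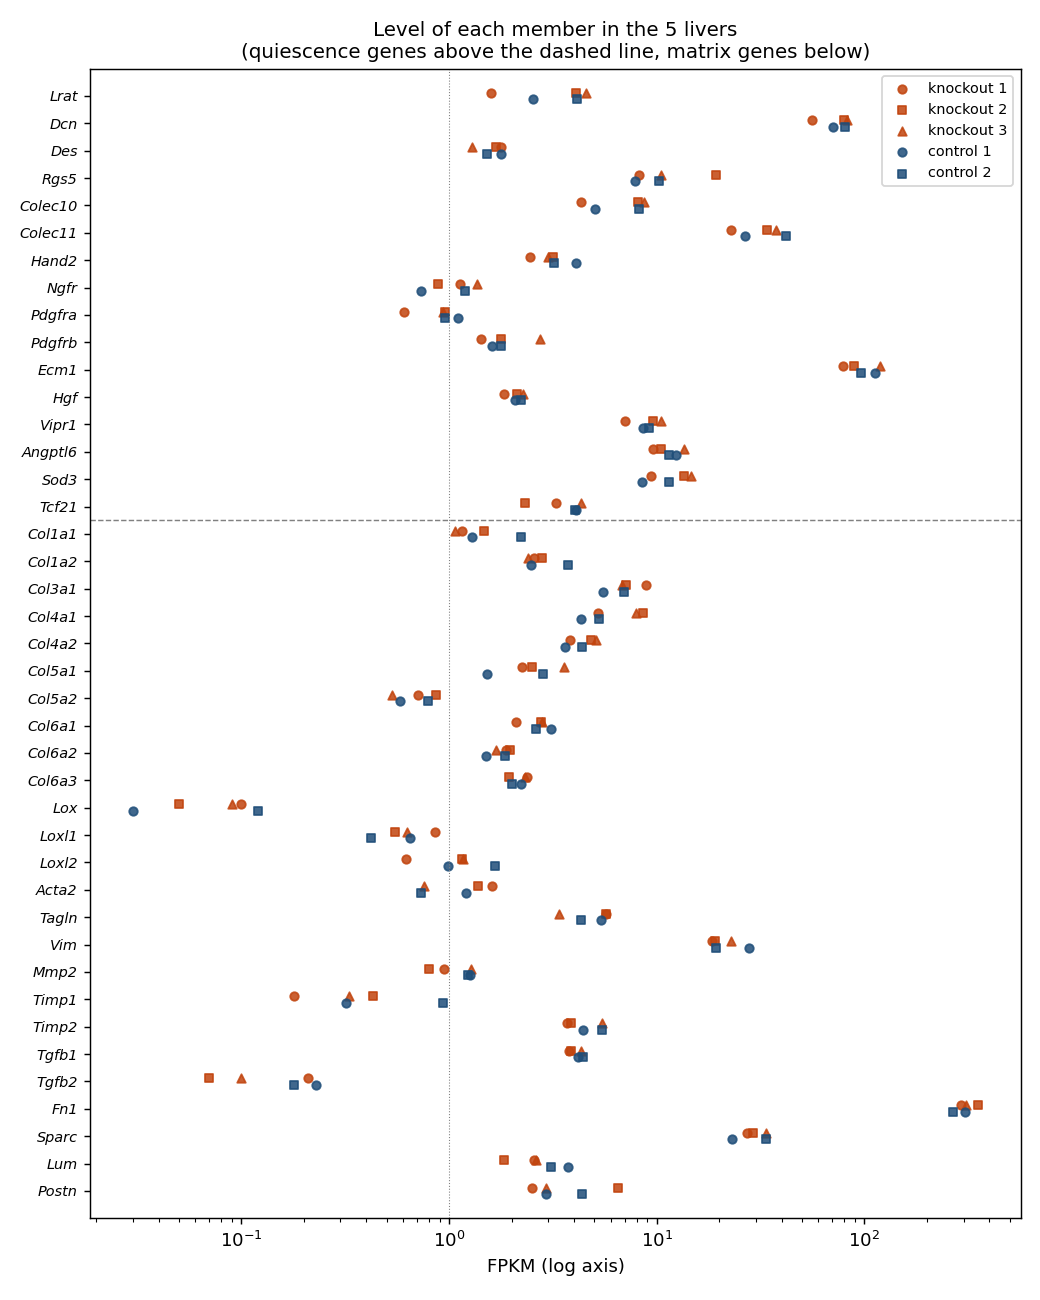
FPKM (log axis) of each of the 41 members in every liver, 3 knockouts in orange and 2 controls in blue, with quiescence genes above the dashed line and matrix genes below it. The pale vertical line marks 1 FPKM, below which the mean of 6 members lies, and in all members but Hand2 and Lum the 2 groups overlap.

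Among genes of the quiescent state, the median log2 fold change of the 15 tested members was -0.04, with 6 higher and 9 lower in knockouts. The median over all 10820 rows was 0.06, with 64.2% of rows higher. Lrat, the acyltransferase that makes the retinyl esters of the stellate cell, had 1.59, 4.07 and 4.57 FPKM in knockout livers, against 2.54 and 4.12 FPKM in control livers. Knockout 1 was lowest and knockout 3 highest, with both controls between them. It had the widest spread of the tested members, with a ratio of 2.87 between the highest and the lowest liver, and its log2 fold change was -0.03, where limma's 95% interval reached down to -0.88 and up to 0.82. A difference of that size in either direction could not have been told from 0.

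Hand2, a basic helix-loop-helix transcription factor of stellate cells, was the quiescence gene whose groups did not overlap. It had 2.44, 3.17 and 2.98 FPKM in knockout livers, against 4.07 and 3.21 FPKM in control livers. Knockout 2 was just below control 2, so the separation was narrow. The means were 2.86 ± 0.38 FPKM in knockouts and 3.64 ± 0.61 FPKM in controls, with a log2 fold change of -0.26 (SE 0.15, limma adjusted p = 0.739). The value was -0.13 without control 1. Hand2 (ENSMUSG00000038193.4) lies on chromosome 8 at 57320983 to 57324633, plus strand, in the GENCODE M21 annotation of GRCm38, the assembly also called mm10. The antisense gene Hand2os1 overlaps 19.6% of its exon bases. Hand2os1 had 1.58, 2.74 and 2.52 FPKM in knockout livers, against 2.15 and 2.46 FPKM in control livers. No source used here says whether reads were assigned by strand, so reads of the 2 genes cannot be told apart where they overlap. Tcf21, a factor of the same class that stellate cells also express, had 3.27, 2.32 and 4.33 FPKM in knockouts, against 4.09 and 4.03 FPKM in controls, so that knockouts lay on both sides of the controls.

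The promoter of Hand2 is shown because its groups were separate. That of Lrat is shown because it varied most between livers among the 35 members tested at 1 FPKM. That of Col3a1 is shown because the ratios of Col1a1 and Col1a2 described further on share it as denominator. Each is the stretch of 250 bases before the RefSeq start on GRCm38.p6, read 5′ to 3′ on the strand of the gene. Capitals mark a CCAAT box (CCAAT), a GC box (GGGCGG) or a TATA box (TATAAA) on either strand, and no match overlapped another.
Hand2, chr8:57320733-57320982, plus strand: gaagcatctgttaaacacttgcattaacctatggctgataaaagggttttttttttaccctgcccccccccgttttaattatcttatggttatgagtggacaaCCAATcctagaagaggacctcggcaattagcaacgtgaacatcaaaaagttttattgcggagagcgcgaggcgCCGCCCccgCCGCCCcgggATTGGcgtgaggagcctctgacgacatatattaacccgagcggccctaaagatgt
Lrat, chr3:82903975-82904224, minus strand: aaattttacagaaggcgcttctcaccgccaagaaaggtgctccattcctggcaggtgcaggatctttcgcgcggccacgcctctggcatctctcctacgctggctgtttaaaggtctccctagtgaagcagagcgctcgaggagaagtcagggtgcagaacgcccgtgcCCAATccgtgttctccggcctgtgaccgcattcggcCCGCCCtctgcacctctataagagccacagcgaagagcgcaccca
Col3a1, chr1:45311288-45311537, plus strand: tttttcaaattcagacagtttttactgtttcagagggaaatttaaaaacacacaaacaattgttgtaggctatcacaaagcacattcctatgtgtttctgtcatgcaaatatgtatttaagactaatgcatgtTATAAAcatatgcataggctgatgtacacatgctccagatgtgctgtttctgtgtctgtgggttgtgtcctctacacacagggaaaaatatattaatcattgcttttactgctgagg
Hand2 held 4 matches, with CCAAT boxes beginning 147 and 55 bases before the start and 2 GC boxes between them. Lrat held a CCAAT box at 81 bases and a GC box at 45 bases before the start, and no exact match to TATAAA. Col3a1 held only a match to TATAAA, ending 112 bases before the start. It was poorer in G and C than the other promoters shown (35.2%, against 49.2% for Hand2 and 59.2% for Lrat). Only exact matches were searched for. Of all 32851 promoter windows of this length, 33.8% held a CCAAT box, 32.7% a GC box and 12.4% a TATA box. Counted by gene over 27025 genes, of which some have several windows, the shares were 37.5%, 35.4% and 14.3% in the same order. Promoters of 28 of the 41 members were found by symbol. Among these 28 genes, 11 held a CCAAT box (39.3%), 13 a GC box (46.4%) and 5 a TATA box (17.9%).

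The collectins Colec10 and Colec11, secreted lectins of innate immunity that stellate cells make in liver, had their lowest values in the same livers as Lrat. Colec10 had 4.33, 8.12 and 8.66 FPKM in knockout livers, against 5.07 and 8.24 FPKM in control livers. Colec11 had 22.7, 33.9 and 37.4 FPKM in knockout livers, against 26.7 and 41.7 FPKM in control livers. For Lrat and both collectins, knockout 1 and control 1 were the lowest livers, so the difference ran across genotypes. Dcn, which encodes decorin, a small proteoglycan that binds collagen fibrils and TGF-beta, had 56.0, 79.4 and 82.5 FPKM in knockouts, against 71.0 and 80.5 FPKM in controls. Knockout 1 was lowest, and the other knockouts lay beside the controls.

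Receptors for growth factors and neuropeptides overlapped between the groups as well. Pdgfrb, the PDGF receptor through which stellate cells are driven to divide, had 1.43, 1.77 and 2.74 FPKM in knockouts, against 1.61 and 1.78 FPKM in controls. Pdgfra averaged below 1 FPKM, with 0.61, 0.96 and 0.93 FPKM in knockouts, against 1.10 and 0.96 FPKM in controls, where knockout 2 and control 2 were equal. Vipr1, a receptor for vasoactive intestinal peptide, had 7.07, 9.55 and 10.5 FPKM in knockouts, against 8.59 and 9.15 FPKM in controls, and Ngfr, the low-affinity neurotrophin receptor, lay between 0.73 and 1.36 FPKM. Hgf, the growth factor by which stellate cells act on hepatocytes, was among the steadiest members, with 1.84, 2.12 and 2.26 FPKM in knockouts, against 2.07 and 2.23 FPKM in controls.

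The other quiescence genes were a mixture of secreted proteins and cytoskeletal or signalling genes. Ecm1, encoding extracellular matrix protein 1, had 79.2, 88.8 and 118.99 FPKM in knockouts, against 112 and 96.6 FPKM in controls. Angptl6, an angiopoietin-like secreted protein, had 9.64, 10.5 and 13.5 FPKM in knockouts, against 12.4 and 11.5 FPKM in controls. In both, knockouts 1 and 2 were below the controls and knockout 3 above them. Sod3, the extracellular superoxide dismutase, had 9.38, 13.5 and 14.7 FPKM in knockouts, against 8.49 and 11.5 FPKM in controls. Rgs5, a regulator of G-protein signalling found in pericytes and stellate cells, had 8.17, 19.4 and 10.5 FPKM in knockouts, against 7.84 and 10.3 FPKM in controls, so that its log2 fold change of 0.37 (SE 0.33) rested on knockout 2. Des, encoding desmin, stayed between 1.29 and 1.77 FPKM in all 5 livers.

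Knockout 1 was the liver with the lowest value for 10 of the 15 tested quiescence genes, whereas it was lowest for 14.7% of all rows. Knockout 3 was highest for 11 of the 15, against 25.8% of all rows. This split lay within the knockout group and was noticed after the values were seen. The level of the group, taken as the mean over tested members of log2(FPKM + 1) after subtracting each gene's 5-liver mean, was -0.27, 0.07 and 0.19 in knockouts, against -0.08 and 0.09 in controls. The knockouts thus covered a wider range than the controls and included both extremes. Knockout 1 also had the highest sum of the 4 hemoglobin rows, with 1235, 168 and 82.1 FPKM in knockouts, against 73.2 and 75.0 FPKM in controls. The sum of 16 sinusoidal endothelial markers was 313, 225 and 245 FPKM in knockouts, against 287 and 236 FPKM in controls, so knockout 1 was highest in endothelial markers while lowest in quiescence genes. Lyve1 itself had 3.90, 7.32 and 10.5 FPKM in knockouts, against 7.34 and 8.92 FPKM in controls. The part of blood and of cell composition in the low values of knockout 1 was not tested. Without knockout 1 the median log2 fold change of the quiescence genes was 0.10.

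**Figure D3:**
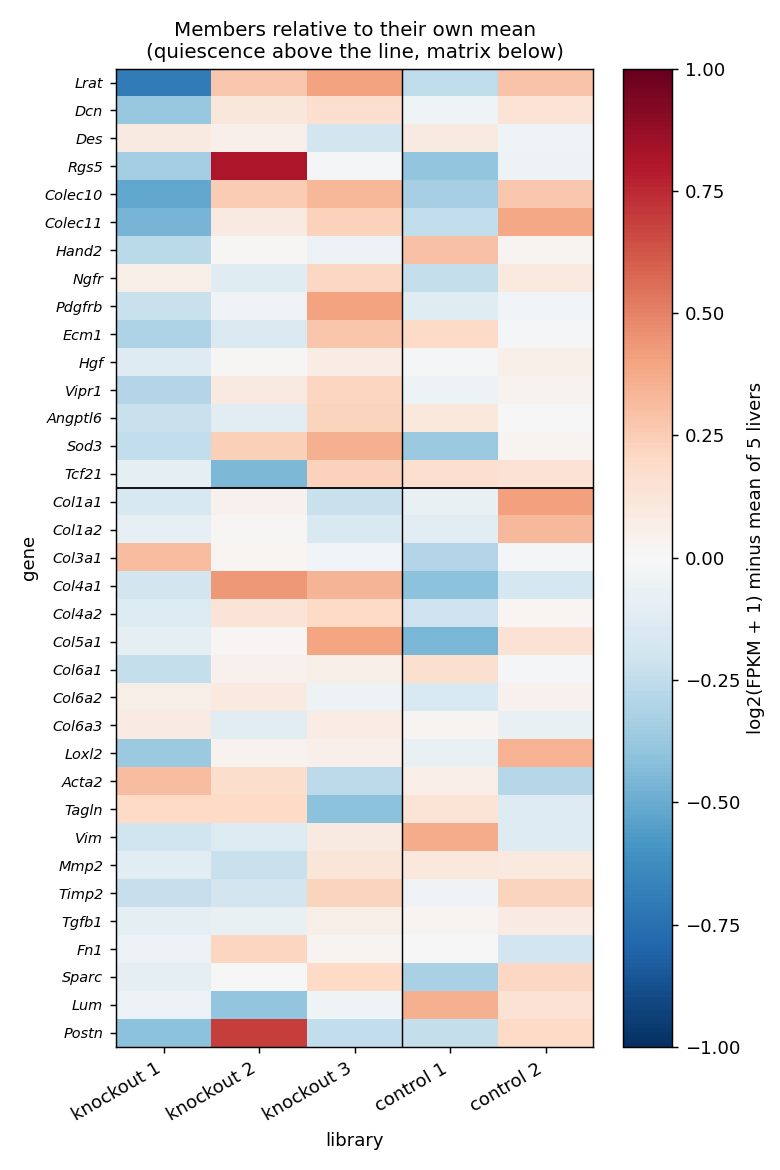
Log2(FPKM + 1) of the 35 tested members in each liver minus the 5-liver mean of the gene (red above, blue below), with knockouts left of controls and quiescence genes above the horizontal line. The column of knockout 1 is blue for most quiescence genes and mixed for matrix genes.

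Collagens differed in sign. Among the 9 tested collagen genes, 6 were higher and 3 lower in knockouts, with a median log2 fold change of 0.09 against 0.06 over all rows. With median-of-ratios scaling and with quantile normalization the median of all rows became 0.00, a shift as large as most of the medians given here. Col1a1 and Col1a2, the chains of type I collagen and the main product of myofibroblasts, leaned lower. Col1a1 had 1.16, 1.48 and 1.07 FPKM in knockouts, against 1.29 and 2.21 FPKM in controls, with a log2 fold change of -0.28 (SE 0.19, limma adjusted p = 0.776). Col1a2 had 2.56, 2.79 and 2.39 FPKM in knockouts, against 2.49 and 3.72 FPKM in controls. In both genes control 2 was the highest liver and the groups overlapped. Col3a1, the homotrimeric fibrillar collagen that forms fibres together with type I, leaned the other way, with 8.91, 7.09 and 6.83 FPKM in knockouts, against 5.53 and 6.92 FPKM in controls. Its log2 fold change was 0.25 (SE 0.16, limma adjusted p = 0.760).

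The basement membrane collagen chains Col4a1 and Col4a2, which assemble into 1 heterotrimer and are also made by sinusoidal endothelium, were the next pair. Col4a1 had 5.24, 8.55 and 7.95 FPKM in knockouts, against 4.33 and 5.27 FPKM in controls. Knockouts 2 and 3 were above both controls, and knockout 1 was just below control 2. The means of Col4a1 were 7.25 ± 1.76 FPKM in knockouts and 4.80 ± 0.66 FPKM in controls, with the largest positive log2 fold change of the tested members, 0.49 (95% interval -0.01 to 0.98, limma adjusted p = 0.707). Col4a2 had 3.82, 4.81 and 5.08 FPKM in knockouts, against 3.60 and 4.38 FPKM in controls, and a log2 fold change of 0.16 (SE 0.15). The genes lie head to head on chromosome 8, Col4a1 (ENSMUSG00000031502.11) at 11198423 to 11312826 on the minus strand and Col4a2 (ENSMUSG00000031503.13) at 11312805 to 11449287 on the plus strand, and their first exons share 22 bases.

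Chains of types V and VI showed values within the spread of the livers. Col5a1, a chain of the minor fibrillar collagen that starts fibril assembly, had 2.25, 2.51 and 3.57 FPKM in knockouts, against 1.53 and 2.84 FPKM in controls. Its partner Col5a2 averaged under 1 FPKM, at 0.53 to 0.87 FPKM in knockouts and 0.58 to 0.79 FPKM in controls. The type VI chains form the microfibrils around cells. Col6a1 had 2.10, 2.78 and 2.81 FPKM in knockouts, against 3.10 and 2.62 FPKM in controls. Col6a2 lay between 1.50 and 1.97 FPKM in all livers and Col6a3 between 1.94 and 2.36 FPKM.

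Ratios between collagen chains within a liver do not change when a library is scaled by a common factor, although quantile normalization can change them. From the deposited FPKM, 8 of them were computed without a pseudocount after the single values had been seen. The groups did not overlap for 3 of the 8. As single rows, 25.3% of all 10820 rows had groups that did not overlap, and the share among ratios of other genes was not computed. The ratio of Col1a2 to Col3a1 was 0.287, 0.394 and 0.350 in knockouts, against 0.450 and 0.538 in controls. It was lower in 3 of 3 knockouts than in either control, and the exact two-sided permutation p was 0.1, the smallest that 10 splits allow (0.533 after Benjamini-Hochberg adjustment over the 8 ratios). The ratio of Col1a1 to Col3a1 was 0.130, 0.209 and 0.157 in knockouts, against 0.233 and 0.319 in controls (exact permutation p = 0.2, adjusted 0.533). Both ratios share Col3a1, and Col1a1 to Col1a2 was 0.453, 0.530 and 0.448 in knockouts, against 0.518 and 0.594 in controls, which overlapped (exact permutation p = 0.3). The ratio of Col4a1 to Col4a2 was 1.37, 1.78 and 1.56 in knockouts, against 1.20 in both controls (exact permutation p = 0.2, adjusted 0.533). None of the 8 ratios passed the adjustment, and the design could not have given a p below 0.1. In the other 4 ratios, of types V and VI, the groups overlapped.

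**Figure D4:**
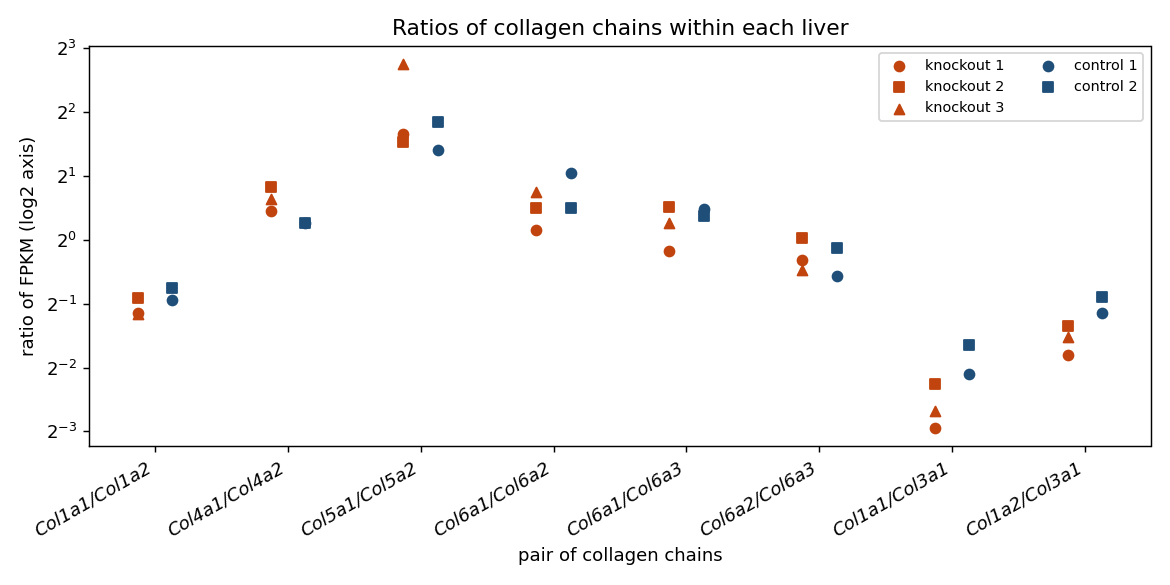
Ratio of FPKM between collagen chains within each liver (log2 axis), 3 knockouts in orange left of 2 controls in blue. The knockouts lie below the controls for Col1a1/Col3a1 and Col1a2/Col3a1 and above them for Col4a1/Col4a2, and overlap with them for the other 5 ratios.

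Enzymes that crosslink collagen were scarce. Lox had between 0.05 and 0.10 FPKM in knockouts and 0.03 and 0.12 FPKM in controls, too low for either fit. Loxl1, a lysyl oxidase linked to elastic fibres, had 0.86, 0.55 and 0.63 FPKM in knockouts, against 0.65 and 0.42 FPKM in controls. Loxl2, which acts on type IV collagen, had 0.62, 1.15 and 1.17 FPKM in knockouts, against 0.99 and 1.67 FPKM in controls, with knockout 1 lowest and control 2 highest.

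Contractile genes overlapped between the groups. Acta2, the smooth muscle actin by which myofibroblasts are recognised, had 1.61, 1.38 and 0.76 FPKM in knockouts, against 1.21 and 0.73 FPKM in controls. Tagln, encoding the actin-binding protein transgelin, had 5.67, 5.67 and 3.38 FPKM in knockouts, against 5.38 and 4.32 FPKM in controls. Knockout 3 was thus lowest of the knockouts for both, although it was highest for most quiescence genes. Smooth muscle of vessel walls makes both proteins too, and the sum of 11 smooth muscle and pericyte markers was 20.5, 23.8 and 20.8 FPKM in knockouts, against 18.0 and 19.6 FPKM in controls, with 7 of the 11 under 1 FPKM in every liver and none at 0 in all. An antisense gene is annotated over 62.4% of the exon bases of Tagln, so its value is uncertain without strand. Vim, encoding vimentin of mesenchymal, endothelial and immune cells, had 18.4, 19.2 and 22.7 FPKM in knockouts, against 27.8 and 19.3 FPKM in controls, where control 1 was highest.

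Mmp2, both Timp genes and both TGF-beta ligands averaged lower in knockouts, with overlap in each. Timp1, an inhibitor of metalloproteinases that is strongly induced in fibrosis, had 0.18, 0.43 and 0.33 FPKM in knockouts, against 0.32 and 0.93 FPKM in controls. Its log2 fold change was -0.29 (SE 0.19) in a fit with a filter of 0.1 FPKM, in which the 5 members between 0.1 and 1 FPKM were read. Timp2 had 3.71, 3.88 and 5.47 FPKM in knockouts, against 4.41 and 5.45 FPKM in controls. Mmp2, the gelatinase that stellate cells secrete, had 0.95, 0.80 and 1.28 FPKM in knockouts, against 1.26 and 1.24 FPKM in controls, and for Timp2 and Mmp2 knockout 3 was slightly above both controls. Tgfb1, the main profibrotic TGF-beta, which macrophages and endothelium also make, was the steadiest tested member, with 3.76, 3.85 and 4.32 FPKM in knockouts, against 4.20 and 4.41 FPKM in controls. Tgfb2 had 0.07 to 0.21 FPKM in knockouts and 0.18 to 0.23 FPKM in controls.

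Lum, encoding lumican, a leucine-rich proteoglycan that spaces collagen fibrils, was the member with the smallest p. It had 2.57, 1.83 and 2.61 FPKM in knockouts, against 3.75 and 3.11 FPKM in controls, and every knockout lay below both controls. The means were 2.34 ± 0.44 FPKM in knockouts and 3.43 ± 0.45 FPKM in controls, with a log2 fold change of -0.41 (SE 0.16, limma adjusted p = 0.700). Its 95% interval was -0.81 to -0.02. Across the alternatives its fold change stayed between -0.30 and -0.55 and its adjusted p between 0.492 and 0.914. Lum (ENSMUSG00000036446.5) lies on chromosome 10 at 97565128 to 97572703, plus strand. Fibroblasts of portal tracts and mesothelium of the capsule can express it as well. The sum of 5 mesothelial markers (Msln, Upk3b, Upk1b, Wt1 and Muc16) was 0.53, 0.44 and 3.31 FPKM in knockouts, against 2.99 and 1.52 FPKM in controls, with 4 of the 5 under 1 FPKM in every liver. The whole list of 12 portal fibroblast and mesothelial markers summed to 6.00, 4.41 and 8.14 FPKM in knockouts, against 7.79 and 6.15 FPKM in controls, with none at 0 in all livers. The part of these cells in the value of Lum was not tested.

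The other glycoproteins overlapped between the groups. Fn1 had 292, 353 and 309 FPKM in knockouts, against 304 and 266 FPKM in controls. Sparc, a collagen-binding protein of endothelium and stellate cells, had 27.3, 29.1 and 33.5 FPKM in knockouts, against 23.0 and 33.7 FPKM in controls. Postn, encoding periostin, had 2.50, 6.53 and 2.93 FPKM in knockouts, against 2.94 and 4.35 FPKM in controls, and its mean was set by knockout 2. Knockout 2 was also the liver with the most Rgs5.

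When quiescence was set against matrix, the median log2 fold change was -0.04 over the 15 tested quiescence genes and 0.01 over the 20 tested matrix genes, a difference of -0.05. That difference changed sign when single livers were left out, at 0.11 without knockout 1, 0.05 without control 2 and 0.02 without knockout 2. Of the matrix genes, 10 were higher and 10 lower in knockouts. The level of the matrix genes was -0.08, 0.05 and 0.02 in knockouts, against -0.06 and 0.06 in controls, a narrower range than that of the quiescence genes. Quiescence minus matrix was -0.19, 0.02 and 0.17 in knockouts, against -0.03 and 0.03 in controls. The controls were near balance, and the knockouts lay on both sides of them, with knockout 1 shifted away from quiescence genes and knockout 3 towards them. The 3 knockouts thus had no shift in 1 direction.

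**Figure D5:**
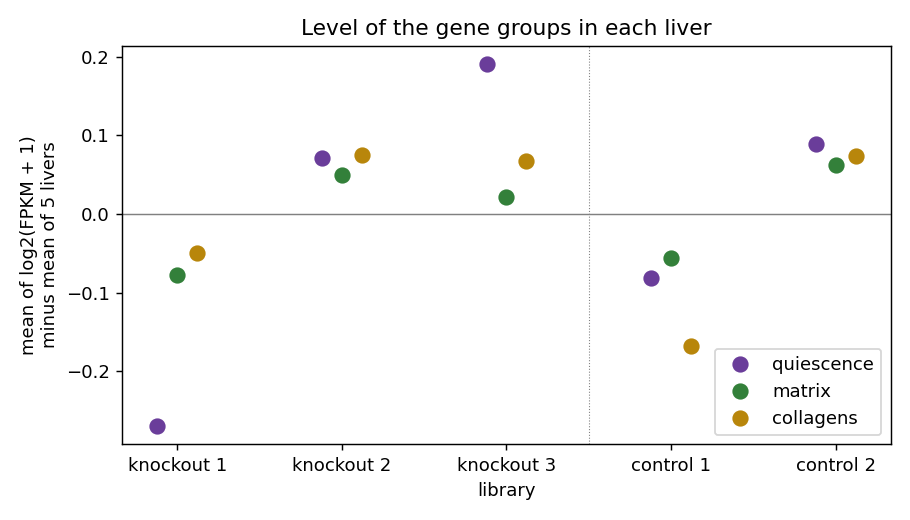
Mean of log2(FPKM + 1) over the tested quiescence, matrix and collagen genes in each liver, minus the 5-liver mean, with knockouts left of controls. Quiescence genes run between -0.27 in knockout 1 and 0.19 in knockout 3, and matrix genes between -0.08 and 0.06.

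Scaling of the libraries moved these small differences. After median-of-ratios scaling 12 of the 35 members were higher and 23 lower in knockouts, and the same counts were found after quantile normalization, against 16 and 19 on the deposited scale. Groups that did not overlap then numbered 4 members with median-of-ratios scaling, all lower, namely Lum, Hand2, Tgfb1 and Mmp2, where 12.1% of all rows were lower in this way. With quantile normalization they numbered 8, with Hgf, Tcf21, Col1a1 and Col1a2 in addition, where 11.5% of all rows were lower in this way. No member lay entirely higher on any of the 3 scales, where the share of all rows was 18.9% as deposited, 11.9% with median-of-ratios scaling and 10.9% with quantile normalization.

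Other genes of the same pathways were read from lists of receptors, processing enzymes and further matrix genes, and none of their members passed the test over all genes in either direction. Among 9 tested genes of vitamin A storage and stellate identity, 5 were higher and 4 lower in knockouts. Gata4, a transcription factor of stellate and endothelial cells, had 6.90, 5.99 and 7.47 FPKM in knockouts, against 4.41 and 5.94 FPKM in controls. Pparg had 1.02, 1.18 and 0.91 FPKM in knockouts, against 0.97 and 3.44 FPKM in controls, and Lhx2, a factor that restrains stellate activation in mice, averaged 1.36 ± 0.41 FPKM in knockouts and 0.94 ± 0.30 FPKM in controls.

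Of 20 tested TGF-beta receptors, SMADs and targets, 13 were higher and 7 lower, or 65.0% higher against 64.2% of all rows. Groups did not overlap for 25.0% of these 20 genes, all higher, against 25.3% of all rows in either direction and 18.9% higher, so the list was near the background. Its 4 genes with the smallest p are given next, and Smad2, an effector of TGF-beta like Smad3, overlapped between the groups with a log2 fold change of -0.07. Smad7, the inhibitory SMAD that TGF-beta and BMP signals induce, had 1.96, 3.62 and 2.52 FPKM in knockouts, against 1.35 and 1.09 FPKM in controls (log2 fold change 0.71, SE 0.21, limma adjusted p = 0.700). Smad6, the inhibitor of BMP signals, averaged 2.16 ± 0.08 FPKM in knockouts and 1.65 ± 0.12 FPKM in controls. Smad4, the partner common to both branches, averaged 11.4 ± 1.46 FPKM in knockouts and 9.54 ± 0.25 FPKM in controls, and Smad3, the TGF-beta effector, 2.91 ± 0.81 FPKM in knockouts and 2.07 ± 0.36 FPKM in controls. Of 7 tested PDGF and HGF pathway genes 6 were higher, where 64.2% of all rows were higher. Their median log2 fold change was 0.10, against 0.06 over all rows. Pdgfa, a ligand of the PDGF receptors, led them with 5.05, 4.40 and 6.55 FPKM in knockouts, against 3.28 and 2.35 FPKM in controls (log2 fold change 0.73, SE 0.19, limma adjusted p = 0.689). Among PDGF ligands too low for the test, Pdgfb lay entirely higher in knockouts, Pdgfc entirely lower, and Pdgfd overlapped between the groups. Met, the receptor of HGF, averaged 16.7 ± 3.08 FPKM in knockouts and 14.5 ± 2.79 FPKM in controls. Neither Smad7 nor Pdgfa is particular to stellate cells in whole liver.

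Enzymes of collagen processing were higher in 9 and lower in 8 of 17 tested genes. P3h1, a prolyl 3-hydroxylase of collagen, had 5.40, 6.82 and 6.36 FPKM in knockouts, against 3.95 and 4.17 FPKM in controls (log2 fold change 0.50, SE 0.13, limma adjusted p = 0.689). P3h3, of the same family, had 1.67, 1.48 and 1.71 FPKM in knockouts, against 1.08 and 0.90 FPKM in controls (adjusted p = 0.700). Crtap, which binds P3h1 in the complex that modifies collagen, averaged lower, with 4.25, 4.05 and 5.18 FPKM in knockouts, against 5.01 and 6.81 FPKM in controls. P4ha2, a prolyl 4-hydroxylase subunit, averaged 2.85 ± 1.36 FPKM in knockouts and 3.41 ± 0.41 FPKM in controls.

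Matrix proteinases were higher in 6 of 9 tested genes, matrix receptors in 10 of 12, basement membrane genes in 8 of 11, and proteoglycans with elastic fibre genes in 7 of 12, where 64.2% of all rows were higher. Their medians were 0.13, 0.04, 0.06 and 0.05 on the log2 scale. Among these Adam10, a membrane-bound sheddase, averaged 6.02 ± 0.23 FPKM in knockouts and 5.01 ± 0.26 FPKM in controls. Col15a1, a collagen of basement membrane zones, averaged 1.46 ± 0.24 FPKM in knockouts and 0.97 ± 0.32 FPKM in controls, and Dag1, encoding dystroglycan, a laminin receptor, 13.4 ± 1.14 FPKM in knockouts and 11.6 ± 1.10 FPKM in controls. Efemp1, a fibulin of the matrix, had 2.97, 3.23 and 5.33 FPKM in knockouts, against 5.13 and 5.30 FPKM in controls.

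Markers of cells that share members of the list were read beside them. Of the 13 tested Kupffer cell and macrophage markers, 12 were higher in knockouts, where 64.2% of all rows were higher. The list summed to 430, 558 and 535 FPKM in knockouts, against 317 and 529 FPKM in controls. Control 1 was lowest, while control 2 was above knockout 1 and near knockouts 2 and 3. Of the 16 sinusoidal markers 8 were higher. Cholangiocyte markers summed to 81.7, 57.7 and 63.2 FPKM in knockouts, against 36.3 and 46.6 FPKM in controls, mostly from Spp1. Lymphocyte markers summed to 7.94, 6.76 and 5.18 FPKM in knockouts, against 3.68 and 3.93 FPKM in controls. Of these 9 markers 5 were under 1 FPKM in every liver, and only 1, Ptprc, was tested. Cd3e and Ms4a1 averaged lower in knockouts and the other lymphocyte markers higher. Hepatocyte markers summed to 91071 to 104323 FPKM in knockouts and 103537 to 108009 FPKM in controls. None of these lists had a marker at 0 in all 5 livers, and the part of these cells in the members' values was not tested. Heg1 itself, the targeted gene, had 0.45, 0.43 and 0.50 FPKM in knockouts, against 0.48 and 0.35 FPKM in controls (exact permutation p = 0.5), so the values overlapped and do not check the labels. Which exons are floxed is not known from the labels. The summed FPKM of the libraries lay between 797692 and 820498.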

How the data were processed

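RNA of 5 mouse livers was sequenced in paired ends, per the labels' protocols. The authors deposited FPKM values per gene symbol, rounded to 2 decimals. HISAT2, StringTie, DESeq2 and the mm10 build are named in the submitters' processing notes, without versions or roles. Of 2 tables deposited, all 33589 rows held the same values. FPKM carry no totals, so the depth is unknown and no counting interval is given. Groups were taken from the labels, which do not say that each library is a separate animal, so p-values measure the spread between libraries.

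The test was limma 3.58.1 in R 4.3.3 (trended prior, two-sided, Benjamini-Hochberg over 10820 rows with a mean of at least 1 FPKM) on log2(FPKM + 1), tested on simulated data. A fold change on this scale understates the change of low genes. Of the members 35 passed the filter, 5 were read from a fit with a filter of 0.1 FPKM, and Lox was not tested. Groups of genes are described by counts and medians. All members were named, with a test beside those whose groups did not overlap or whose unadjusted p was below 0.05. Of each pathway list up to 4 genes with the smallest p were considered, and 1 of them is not reported here. Fold changes of other members and the collagen ratios were chosen after their values were seen. The members and lists were chosen with earlier results of these data known. Positions came from GENCODE M21.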

Additional observations from a re-analysis of the deposited data

How the results depend on the processing

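No member passed the test under any alternative run, namely a pseudocount of 0.1, filters of 0.1 FPKM, 5 FPKM or none, median-of-ratios scaling, quantile normalization, no trend, library weights, the replicate number as a block, and each library left out in turn. Over all rows, 0 genes were called in each of these except 5 with the replicate block and 1 without control 1, so leaving out a library gave 0 to 1. The labels number livers within each genotype and do not say that a number marks a shared litter or batch. Deviations from the group means of same-numbered livers correlated at 0.227 and 0.196 over all tested rows, with only 2 such pairs, so the block is given here alone. Knockout 3 has no partner and adds nothing to the fold change in that fit. With the replicate block the median log2 fold changes were -0.10 for quiescence and 0.01 for matrix genes. Of 13 members left by the filter of 5 FPKM, 8 were higher, and the matrix median was 0.156. With quantile normalization the matrix median was -0.083. Without 1 library the quiescence median ran between -0.103 and 0.0972, the matrix median between -0.0848 and 0.0127, the difference between -0.116 and 0.107, and members higher between 12 and 21. Hand2, Lum and Col4a1 kept their direction in every alternative that held them. For Hand2, Lum and the 3 ratios whose groups did not overlap, leaving out 1 library could not have reversed the direction. Those runs are therefore no check of it. Heg1 gave 0.05 with filters of 0.1 FPKM and none. The 2 controls limit every comparison, and depth is unknown.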

Other observations

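Msln and Upk3b, markers of mesothelium, were low in knockouts 1 and 2 and near the level of controls in knockout 3. Msln had 0.09, 0.09 and 1.34 FPKM in knockouts, against 1.48 and 0.53 FPKM in controls, and Upk3b had 0.26, 0.18 and 0.84 FPKM in knockouts, against 0.84 and 0.61 FPKM in controls. Lama5, a laminin chain of basement membranes, had 0.32, 0.19 and 1.43 FPKM in knockouts, against 1.48 and 0.89 FPKM in controls. Tcf21, Mmp2 and Efemp1, described above, were also lower in knockouts 1 and 2 than in the other 3 livers. These genes were chosen after their values were seen, and the part of capsule tissue in the samples was not tested.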
